A study of Homo sapiens with 24 samples.

Results

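MYCN, MYC and the factors that share their dimerization partner were followed across 8 groups of human neuroblastoma cells. The members were chosen by symbol: MYCN, MYC, MYCL, MAX, MXD1, MXD3, MXD4, MXI1 and MNT, 9 of the 60564 rows of the expression table. All 9 passed the filter on low values, at least 1 FPKM in at least 3 libraries, which left 15903 genes to test. FPKM is a fragment count scaled to transcript length and library size, so levels are per length. RNA sequencing had been done on SK-N-BE(2), which carries amplified MYCN, and SH-SY5Y, which does not. In each line NDUFS6, an accessory subunit of respiratory complex I, was knocked down with a lentiviral short hairpin RNA, against the empty vector of that construct. In each line it was also overexpressed from a lentiviral full-length coding sequence, against its own empty vector. All cells were selected with puromycin, and the sources used here do not give the hairpin. Each group had 3 libraries, all of 1 batch in the labels, where they are called biological replicates. No source tells if each had its own infection, so the p-values below reflect how far these libraries spread, a spread that may be technical.

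MYCN, MYC and MYCL are basic helix-loop-helix leucine zipper proteins that bind E-box DNA only as a dimer with MAX and then activate transcription. MXD1, MXD3, MXD4, MXI1 and MNT also pair with MAX, occupy the same sites and recruit SIN3 corepressors, so the relative amounts of the proteins set the output of shared target genes. In neuroblastoma, amplified MYCN marks aggressive tumours, and cells with amplification generally hold little MYC. RNA levels do not report protein levels of these short-lived factors.

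Promoter sequences were taken from RefSeq for the members whose promoters hold a searched motif, because they show which members carry an E-box or an E2F site themselves. On hg38 MYCL lies on chromosome 1 (39895426 to 39902256, minus strand), MAX on 14 (65006174 to 65102695, minus), MXD1 on 2 (69897688 to 69942945, plus), MXD3 on 5 (177301461 to 177312757, minus), MXD4 on 4 (2247432 to 2262294, minus), MXI1 on 10 (110207605 to 110287365, plus) and MNT on 17 (2384060 to 2401118, minus). Each promoter runs from 250 bases before to 50 bases after the start on GRCh38.p14, 5′ to 3′ on the gene's strand. Capitals in MXD4 and MNT mark the E-box CACGTG, and capitals in MYCN mark overlapping E2F words, TTTGGCGC on the gene's strand and TTTCGCGC on the other. The windows are chr2:15940300-15940599 on the plus strand for MYCN, chr4:2262060-2262359 on the minus strand for MXD4 and chr17:2401011-2401310 on the minus strand for MNT.
MYCN: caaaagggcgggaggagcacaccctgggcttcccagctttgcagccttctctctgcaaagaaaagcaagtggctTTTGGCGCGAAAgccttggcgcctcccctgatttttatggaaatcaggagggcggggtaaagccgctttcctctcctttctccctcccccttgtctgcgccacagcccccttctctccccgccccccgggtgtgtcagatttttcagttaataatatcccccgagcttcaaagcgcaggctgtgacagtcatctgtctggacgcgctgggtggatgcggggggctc
MXD4: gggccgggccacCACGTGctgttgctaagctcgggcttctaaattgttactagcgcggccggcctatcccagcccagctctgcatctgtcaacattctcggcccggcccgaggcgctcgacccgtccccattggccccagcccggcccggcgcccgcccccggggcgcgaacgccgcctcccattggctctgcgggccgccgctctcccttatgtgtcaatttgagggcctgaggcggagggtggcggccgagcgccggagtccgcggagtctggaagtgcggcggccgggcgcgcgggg
MNT: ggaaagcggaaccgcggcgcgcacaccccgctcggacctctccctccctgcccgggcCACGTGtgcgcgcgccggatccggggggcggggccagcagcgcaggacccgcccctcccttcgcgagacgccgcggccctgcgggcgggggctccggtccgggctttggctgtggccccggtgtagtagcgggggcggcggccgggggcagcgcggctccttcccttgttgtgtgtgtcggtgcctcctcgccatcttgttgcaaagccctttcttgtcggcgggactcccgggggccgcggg

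The promoter table held 8 of the 9 members, with 11 promoters. Both strands were searched for the E-box CACGTG, 4 E2F words (TTTCCCGC, TTTGGCGC, TTTCGCGC and TTTGCCGC) and the ATF4 composite word TGATGNAA. The E-box was in 2 of the 11 promoters, beginning 238 bases before the start in MXD4 and 193 bases before it in MNT. Among all 35116 promoters of the table, 7.26% held the E-box. The E2F words were in 1 of the 11, beginning 176 bases before the MYCN start, against 3.31% of all promoters. The ATF4 word was in 0 of the 11, against 3.62% of all promoters. A match describes letters in the window only.

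The libraries were checked through NDUFS6 first. NDUFS6 averaged 1.33 ± 0.26 FPKM in SK-N-BE(2) knockdown cells against 11.2 ± 1.6 with the knockdown vector, and 4.02 ± 0.94 against 11.5 ± 0.6 FPKM in SH-SY5Y (SD, n = 3 each). Overexpression gave 208.0 ± 7.7 against 10.96 ± 0.68 FPKM in SH-SY5Y, and 17.2 ± 2.1 against 12.8 ± 1.0 FPKM in SK-N-BE(2), where the construct therefore raised NDUFS6 RNA by a small factor. Both empty vectors of a line also differed from each other: 34.5% of genes were called between those of SK-N-BE(2) and 36.2% between those of SH-SY5Y. Each member is therefore given against its own vector and against the other vector of the line. Adrenergic markers summed to at least 375 FPKM in every library, while Schwann and endothelial markers summed to at most 2.88 and 0.229 FPKM. Epithelial markers summed to at most 3.68 FPKM, immune markers to at most 11.6 FPKM and fibroblast markers to 28.9 to 236 FPKM.

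MYCN was the defining difference between the lines. MYCN (ENSG00000134323, chromosome 2, hg38 15940564 to 15947007, plus strand) averaged 1013 FPKM over the 6 empty vector libraries of SK-N-BE(2) and 2.45 FPKM over the 6 of SH-SY5Y, 414 times as much. This value is given as a description, since the amplification is what sets the lines apart. In SK-N-BE(2) libraries MYCN ranked 20 to 53 among all rows by FPKM, and in SH-SY5Y libraries 8439 to 14153.

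MYC showed the opposite order. MYC (ENSG00000136997, chromosome 8, 127735434 to 127741434, plus strand), the paralogue that most other cell types use, averaged 0.0086 FPKM in SK-N-BE(2) empty vector libraries and 11.002 FPKM in those of SH-SY5Y. It reached 1 FPKM in 13 libraries, the 12 of SH-SY5Y and 1 of SK-N-BE(2) knockdown, so it passed the filter through SH-SY5Y and its line difference is given without a test. It was listed at 0 in all 3 libraries of SK-N-BE(2) with the knockdown vector. All 9 members were called between the lines, 6 higher in SK-N-BE(2) and 3 lower, where 77.3% of all genes were called, 33.5% higher and 43.8% lower. Nothing is read from this count, since it holds MYCN, whose amplification sets the lines apart, and MYC. Of the MXD group and MAX, MXD4 differed most, at 12.7 FPKM in SK-N-BE(2) against 6.62 FPKM in SH-SY5Y (log2 difference 0.85, SE 0.04, limma adjusted p = 2.13e-14). MAX, the obligate partner, was at 12.1 against 7.59 FPKM (0.61), MXD1 at 2.35 against 1.43 FPKM (0.52), MXI1 at 12.2 against 10.4 FPKM (0.21) and MXD3 at 3.55 against 2.96 FPKM (0.19). MYCL and MNT were lower in SK-N-BE(2), at 1.06 against 2.47 FPKM (-0.78) and 2.74 against 3.47 FPKM (-0.26). With the overexpression vectors alone, the line differences of MXD1 (0.32, limma adjusted p = 0.182) and MXD3 (0.04, limma adjusted p = 0.671) were no longer called. With 1 line of each kind, MYCN amplification cannot be told apart from any other difference between the lines.

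**Figure D1:**
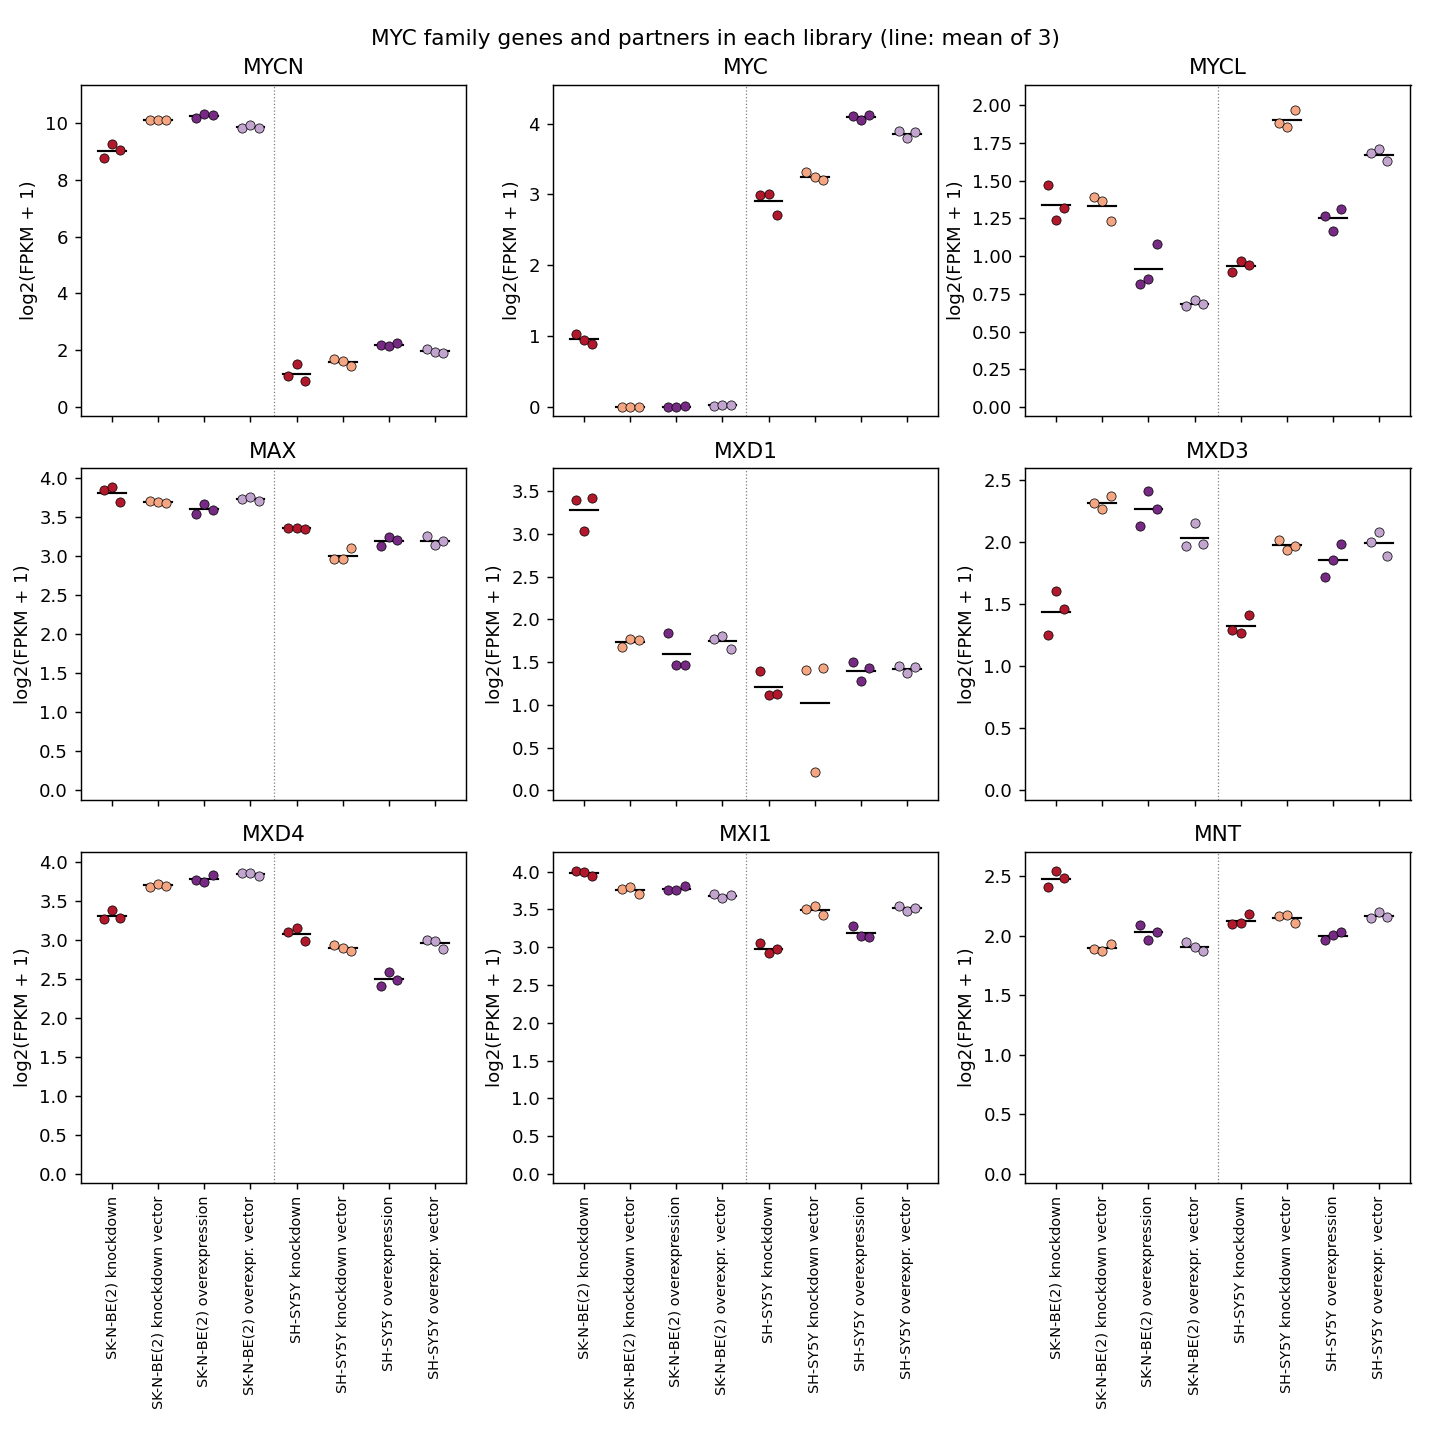
Level of each member in each of the 24 libraries as log2(FPKM + 1), with SK-N-BE(2) groups left of the dotted line and SH-SY5Y groups right of it; points are libraries and bars the means of 3. MYCN averages 1013 FPKM in SK-N-BE(2) empty vector libraries and 2.45 FPKM in SH-SY5Y ones, and MYC lies at or near 0 in SK-N-BE(2) except after knockdown.

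The transcripts around MYCN were read next, as the neighbourhood that an amplicon can carry. Within 400 kb downstream of the MYCN start the table had 12 rows, 11 of them tested, and every tested one was higher in the SK-N-BE(2) empty vector libraries. They passed the filter through SK-N-BE(2), so a difference in this direction was bound to appear, and the window was set after the values were seen. They lay 1.69 to 379 kb from the MYCN start and averaged 0.707 to 18.01 FPKM in SK-N-BE(2) controls. In SH-SY5Y, 7 of the 11 were listed at 0 in all 12 libraries and none exceeded 0.251 FPKM. The nearest is MYCNOS, which overlaps MYCN on the opposite strand, at 18.01 FPKM in SK-N-BE(2) and 0.0899 FPKM in SH-SY5Y controls. GACAT3, a long noncoding RNA 110 kb downstream, was at 2.62 against 0.0775 FPKM.

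On the other side, DDX1, an RNA helicase gene that is co-amplified with MYCN in some tumours, was at 78.3 FPKM in SK-N-BE(2) and 39.7 FPKM in SH-SY5Y controls (log2 difference 0.97). NBAS, its neighbour, was at 10.8 against 8.08 FPKM (0.38). FAM49A, 726 kb downstream, was lower in SK-N-BE(2) at 0.327 against 2.07 FPKM (-1.18). Its mean in SK-N-BE(2) controls was under the filter level of 1 FPKM, so the filter favoured this direction too. Over 5 Mb on either side, 38 other genes were tested, of which 22 were higher in SK-N-BE(2), 12 lower and 4 not called. Of all genes 33.5% were higher and 43.8% lower. The 22 include the 11 downstream transcripts, which were bound to be higher through the filter. The 12 lower include FAM49A, FAM84A, MATN3 and GDF7, which averaged under 1 FPKM in SK-N-BE(2) controls. No excess is therefore read from these counts. RNA levels do not measure copy number, so the extent of the amplicon was not tested.

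**Figure D2:**
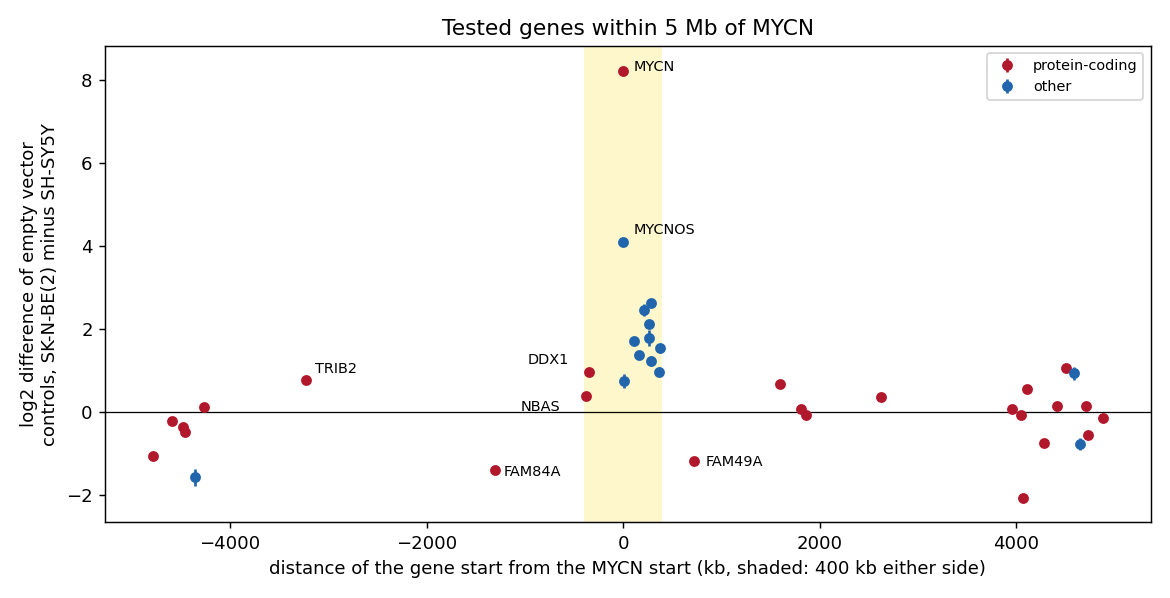
Log2 difference of the empty vector libraries (6 per line, SK-N-BE(2) minus SH-SY5Y, bars 1 SE) for tested genes by distance from the MYCN start, with 400 kb either side shaded. MYCN stands at 8.21 and MYCNOS at 4.10, all tested transcripts up to 379 kb downstream lie above 0, and FAM49A beyond them lies below. The filter on low values favoured the direction of the downstream transcripts and that of FAM49A.

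NDUFS6 knockdown in SK-N-BE(2) lowered MYCN and raised MYC, MXD1, MXI1 and MNT. Of the 9 members 7 were called, 4 higher and 3 lower, where 55.7% of all genes were called, 27.4% higher and 28.3% lower. MYCN was at 431, 608 and 528 FPKM in the knockdown libraries, against 1101, 1104 and 1101 FPKM with the knockdown vector. The groups did not overlap, and the knockdown mean was 0.474 of the vector mean (log2 change -1.09, SE 0.12, limma adjusted p = 1.33e-07). Against the overexpression vector, at 898, 969 and 904 FPKM, the change was -0.83 (limma adjusted p = 6.18e-06). Knockdown left MYCN at a mean of 522 FPKM, far above any SH-SY5Y library. In bulk RNA, fewer cells with high MYCN and less MYCN RNA per cell cannot be told apart.

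MYC was near 1 FPKM in SK-N-BE(2) knockdown cells and at most 0.0243 FPKM in the other SK-N-BE(2) libraries. It was at 1.04, 0.923 and 0.853 FPKM in knockdown libraries and listed at 0 in all 3 libraries with the knockdown vector. The overexpression vector libraries had 0.0097, 0.0176 and 0.0243 FPKM, and the overexpression libraries were at 0, 0 and 0.0140 FPKM. On the log2(FPKM + 1) scale the change was 0.95 (SE 0.06, limma adjusted p = 7.91e-11) and 0.93 against the other vector. That scale understates changes of low genes, and no fold is given against values listed at 0. In SH-SY5Y knockdown libraries, by comparison, MYC was at 5.55 to 7.004 FPKM.

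Of the antagonists in SK-N-BE(2), MXD1, a MAX partner that is induced during differentiation in many tissues, rose most. It was at 9.52, 7.20 and 9.75 FPKM in knockdown libraries against 2.19, 2.42 and 2.39 FPKM with the knockdown vector, without overlap. This is 3.78 times the vector mean (log2 change 1.55, SE 0.21, limma adjusted p = 3.24e-06), and the change was 1.54 against the other vector. MNT, the most widely expressed antagonist, was at 4.31, 4.82 and 4.61 FPKM against 2.70, 2.67 and 2.82 FPKM (0.58, limma adjusted p = 1.48e-09), with 0.57 against the other vector. MXI1 rose less, at 15.05, 15.01 and 14.40 FPKM against 12.6, 13.0 and 12.0 FPKM (0.23, limma adjusted p = 0.000222).

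The antagonist family did not move as one. MXD3, which is expressed in proliferating cells, was at 1.39, 2.05 and 1.75 FPKM in SK-N-BE(2) knockdown libraries against 3.99, 3.82 and 4.18 FPKM with the vector. It fell by 0.88 on the log2 scale (SE 0.09, limma adjusted p = 5.71e-08). MXD4 was at 8.63, 9.47 and 8.72 FPKM against 11.9, 12.2 and 12.0 FPKM, a change of -0.39 (limma adjusted p = 2.36e-06). MAX had a change of 0.12 (limma adjusted p = 0.0624), which was called under TPM scaling (0.22, limma adjusted p = 0.000917) and median of ratios scaling (0.14, limma adjusted p = 0.0307). MYCL was at 1.54 ± 0.21 against 1.52 ± 0.15 FPKM (SD, n = 3 each). Against the overexpression vector, at 0.608 ± 0.021 FPKM, MYCL was higher in knockdown cells by 0.66 (limma adjusted p = 3.05e-07), so its result depended on the vector. Counted against both vectors, the same 7 members were called in the same direction, where 35.4% of genes were. MXD4 and MNT, the members with an E-box in the printed promoters, thus moved in opposite directions in these cells. In SH-SY5Y overexpression both were called lower (-0.46 and -0.17), and a part of the E-box in these changes was not tested.

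Transcripts near MYCN were read in SK-N-BE(2) knockdown cells against both vectors. MYCNOS was at 8.59 ± 0.79 against 21.5 ± 0.7 FPKM (SD, n = 3 each; log2 change -1.24, limma adjusted p = 4.97e-13), and GACAT3 at 1.26 ± 0.22 against 3.37 ± 0.20 FPKM (-0.96). Against the overexpression vector these changes were -0.70 for MYCNOS (limma adjusted p = 4.28e-09) and -0.35 for GACAT3 (limma adjusted p = 0.000887). Of the 11 downstream transcripts 5 were lower, 0 higher and 6 not called against the own vector, where 28.3% of all genes were lower and 27.4% higher. Against the other vector 3 were lower, 1 higher and 7 not called. Against both vectors 2 were lower, where 35.4% of all genes were called the same way. Between the SK-N-BE(2) empty vectors themselves 6 of the 11 were higher with the knockdown vector and 0 lower (median 0.54). Of all genes 15.5% were higher and 19.0% lower between these vectors. DDX1 was higher, at 83.8 ± 2.1 against 75.2 ± 1.6 FPKM (0.15, limma adjusted p = 0.00447), but was not called against the other vector (0.04, limma adjusted p = 0.473). NBAS was at 10.9 ± 0.9 against 10.7 ± 0.1 FPKM (0.02, not called). MYCNOS overlaps MYCN exons on the opposite strand, and the libraries are strand-specific, but the strand setting of the counting is not given. MYCNOS stood at 1.66 per 100 MYCN FPKM in SK-N-BE(2) knockdown libraries and 1.95 with the knockdown vector, and whether reads of MYCN enter its value was not tested.

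**Figure D3:**
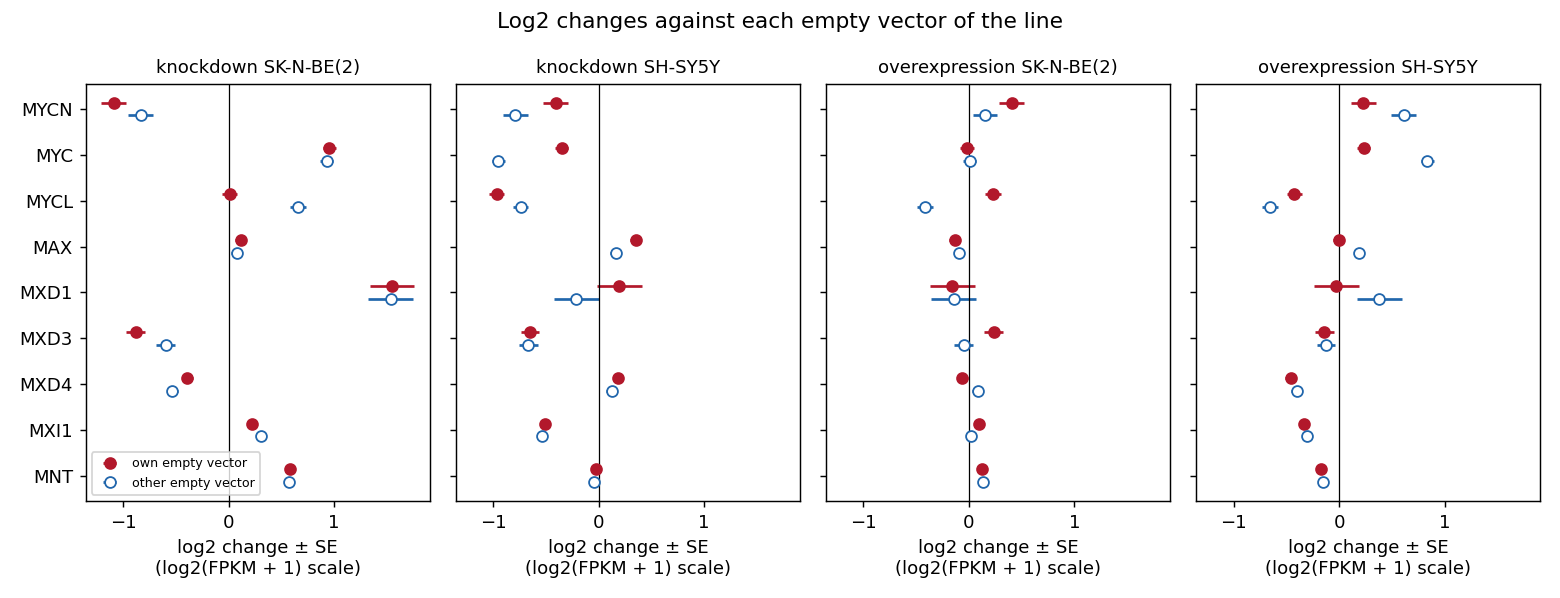
Log2 change of each member on the log2(FPKM + 1) scale, with bars of 1 SE, for the 4 constructs; filled points are against the construct's own empty vector and open points against the other vector of the line, 3 libraries per group. In SK-N-BE(2) knockdown MYCN lies at -1.09 and -0.83 and MXD1 at 1.55 and 1.54, while MYCL in SK-N-BE(2) overexpression lies at 0.23 and -0.42.

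Knockdown in SH-SY5Y lowered all 3 activators. Of the members 7 were called, 2 higher and 5 lower, where 56.0% of all genes were called, and the same 7 were called in the same direction against both vectors, where 42.5% of genes were. MYCN was at 1.15, 1.84 and 0.868 FPKM in knockdown libraries against 2.26, 2.04 and 1.70 FPKM with the vector. These groups overlap, and the change of -0.41 (SE 0.12, limma adjusted p = 0.00553) was lost without knockdown replicate 3 (-0.27, limma adjusted p = 0.0524) and when only these groups were fitted (limma adjusted p = 0.0582). Against the overexpression vector the MYCN change was -0.79 (limma adjusted p = 7.09e-06). MYC, the main activator of this line by RNA, was at 6.94, 7.004 and 5.55 FPKM against 8.93, 8.48 and 8.19 FPKM, a change of -0.35 (SE 0.06, limma adjusted p = 6.13e-05). Against the overexpression vector, at 13.8, 12.8 and 13.7 FPKM, MYC was lower by more, at -0.95. MYCL, first found amplified in lung cancer, had the largest of the 3 falls against the own vector, at 0.859, 0.954 and 0.922 FPKM against 2.68, 2.63 and 2.91 FPKM (-0.97, SE 0.07, limma adjusted p = 6.01e-10). Its groups did not overlap. Against the other vector MYCL changed by -0.74, less than MYC.

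MAX rose in the same SH-SY5Y knockdown cells, at 9.28, 9.28 and 9.13 FPKM against 6.77, 6.76 and 7.55 FPKM (0.35, limma adjusted p = 6.99e-06), with 0.16 against the other vector. MXD3 fell here too, at 1.46, 1.40 and 1.67 FPKM against 3.06, 2.83 and 2.92 FPKM (-0.65, limma adjusted p = 2.99e-06). MXI1 fell to 7.28, 6.57 and 6.84 FPKM in knockdown cells, against 10.4, 10.7 and 9.77 FPKM with the vector (-0.51, limma adjusted p = 4.91e-09). MXD4 had a change of 0.18 (limma adjusted p = 0.00529) that was not called under TPM scaling (0.11, limma adjusted p = 0.138). MNT had a change of -0.02 (95% interval -0.12 to 0.07). MXD1 was at 1.63, 1.17 and 1.18 FPKM in knockdown libraries and at 1.65, 0.159 and 1.70 FPKM with the vector, where replicate 2 stood apart. Its change was 0.20 (limma adjusted p = 0.456) with that library and -0.21 (limma adjusted p = 0.168) without it. SNRNP27, which shares exon bases with MXD1 on the same strand, was at 20.7 to 21.3 FPKM in those 3 vector libraries. In SH-SY5Y knockdown cells all 5 fibroblast markers were higher than with the own vector, summing to 224 to 236 FPKM against 98.3 to 102 FPKM. Adrenergic markers summed to 651 to 680 against 947 to 957 FPKM. The immune marker sum was 8.63 to 11.6 against 1.68 to 2.32 FPKM, nearly all of it CD68, with CD3E listed at 0 in both groups. With the other SH-SY5Y vector the sums were 28.9 to 31.1 FPKM for fibroblast, 1245 to 1280 FPKM for adrenergic and 0.062 to 0.132 FPKM for immune markers. The empty vectors of this line thus differed in these sums as well. In SK-N-BE(2), adrenergic markers summed to 375 to 490 FPKM in knockdown libraries, against 720 to 736 FPKM with the own vector and 950 to 1042 FPKM with the other. TH, the enzyme that opens catecholamine synthesis, was at 55.9 ± 6.4 FPKM in these knockdown libraries. It was at 28.95 ± 0.41 FPKM with the own vector and 81.5 ± 5.6 FPKM with the other, so its direction depended on the vector. Fibroblast markers there summed to 126 to 149 FPKM, against 107 to 112 FPKM with the own vector and 140 to 147 FPKM with the other. Against the own vector COL3A1, a fibrillar collagen, was higher at 49.2 ± 3.3 against 16.4 ± 0.8 FPKM, as was COL1A1 at 11.5 ± 0.2 against 5.26 ± 0.06 FPKM. LUM (67.1 ± 7.7 against 75.4 ± 2.1 FPKM), DCN (7.09 ± 0.88 against 9.89 ± 0.61 FPKM) and PDGFRA (1.43 ± 0.19 against 3.28 ± 0.15 FPKM) were lower (SD, n = 3 each). The part of these shifts in the changes of the members was not tested.

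The test of the difference between the lines' knockdown changes called 8 of the 9 members, 5 higher and 3 lower, where 55.8% of genes were called, 29.5% higher and 26.3% lower. MYC had a difference of 1.305 on the log2 scale (SK-N-BE(2) minus SH-SY5Y, limma adjusted p = 1.34e-10), since it rose in one line and fell in the other. MXI1 also moved in opposite directions, with a difference of 0.74 (limma adjusted p = 4.73e-09), as did MXD4 (-0.57, limma adjusted p = 1.43e-06). MXD1 (1.35), MYCL (0.98) and MNT (0.60) had called differences in which 1 line moved and the other was not called. That of MXD1 was lost with a pseudocount of 0.1 FPKM (1.26, limma adjusted p = 0.0996). The difference of MYCN was -0.68 (limma adjusted p = 0.00164) with the own vectors and -0.04 (limma adjusted p = 0.848) with the others. The MYCN difference was also not called under TPM scaling (-0.32, limma adjusted p = 0.207) or a pseudocount of 0.1 FPKM (-0.44, limma adjusted p = 0.118). MXD3 fell in both lines, and its difference was -0.23 (95% interval -0.50 to 0.04, limma adjusted p = 0.132).

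In SK-N-BE(2) overexpression NDUFS6 itself rose by 0.39 on the log2 scale. Of the 9 members 3 were called, all higher, where 29.7% of all genes were called, 12.9% higher and 16.8% lower. The number of members called was thus near the share of all genes. MYCN was at 1166, 1282 and 1228 FPKM in overexpression libraries against 898, 969 and 904 FPKM with the overexpression vector (0.41, SE 0.12, limma adjusted p = 0.0135). Against the knockdown vector, at 1101 to 1104 FPKM, the change was 0.15 (limma adjusted p = 0.326), and the call was also lost without overexpression replicate 2 (0.37, limma adjusted p = 0.0591) and under TPM scaling (0.35, limma adjusted p = 0.0745). MYCL was at 0.761, 0.797 and 1.12 FPKM against 0.588, 0.631 and 0.606 FPKM (0.23, limma adjusted p = 0.0237). It had the opposite sign against the knockdown vector (-0.42, limma adjusted p = 0.000152), and its call was lost without overexpression replicate 3 (0.15, limma adjusted p = 0.155) or without vector replicate 1 (limma adjusted p = 0.0681) or 3 (limma adjusted p = 0.0642). MNT was at 3.09 ± 0.18 against 2.75 ± 0.10 FPKM (SD, n = 3 each; 0.12, limma adjusted p = 0.0466), and its call was lost without overexpression replicate 1 or 3 or any 1 vector replicate (limma adjusted p 0.0509 to 0.160). Against both vectors 1 member, MNT, was called the same way, where 14.3% of genes were.

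Overexpression in SH-SY5Y, where NDUFS6 rose by 4.13 on the log2 scale, raised MYC and lowered 3 antagonists and MYCL. Of the members 5 were called, 1 higher and 4 lower, where 32.6% of genes were called, and the same 5 were called the same way against both vectors, where 27.0% of genes were. MYC was at 16.2, 15.5 and 16.4 FPKM in overexpression libraries against 13.8, 12.8 and 13.7 FPKM with the vector, without overlap (0.24, SE 0.06, limma adjusted p = 0.00592). Against the knockdown vector its change was 0.84. MYCN was at 3.54, 3.45 and 3.72 FPKM against 3.10, 2.86 and 2.74 FPKM. These groups did not overlap either, but the change of 0.23 was not called (limma adjusted p = 0.146), while against the knockdown vector it was 0.61 (limma adjusted p = 0.000171). MYCL fell by 0.42 (limma adjusted p = 0.000161), to 1.38 ± 0.13 FPKM in overexpression cells against 2.19 ± 0.09 FPKM with the vector (SD, n = 3 each). It was thus lower than the own vector after both constructs in SH-SY5Y.

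MXD4 was at 4.33, 5.04 and 4.61 FPKM in SH-SY5Y overexpression libraries against 7.02, 6.94 and 6.37 FPKM (-0.46, limma adjusted p = 1.39e-06). MXI1 was at 8.70, 7.86 and 7.82 FPKM against 10.7, 10.2 and 10.5 FPKM (-0.33, limma adjusted p = 1.18e-05), and like MYCL it was below its vector after both constructs in this line. MNT was at 3.001 ± 0.0998 against 3.501 ± 0.077 FPKM (SD, n = 3 each; -0.17, limma adjusted p = 0.00715). MXD1, MXD3 and MAX had changes of -0.03, -0.14 and 0.00 and were not called. MAX was called against the knockdown vector (0.19, limma adjusted p = 0.00404).

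The overexpression changes differed between the lines for 6 of the 9 members, where 36.8% of genes were called. With the own vectors MYCL had the largest difference, 0.65 (SK-N-BE(2) minus SH-SY5Y, limma adjusted p = 6.94e-05), which was not called with the other vectors (0.24, limma adjusted p = 0.0614). With the other vectors the difference of MYC was -0.83 (limma adjusted p = 1.42e-07). MXI1 (0.42), MXD4 (0.40) and MNT (0.29) had called differences, and each was called lower in SH-SY5Y overexpression cells. MXD3 (0.37, limma adjusted p = 0.0251) and MYC (-0.25, limma adjusted p = 0.0283) lost their calls when 1 library was left out: SK-N-BE(2) overexpression replicate 2, SK-N-BE(2) vector replicate 1 or 3, SH-SY5Y overexpression replicate 1 or SH-SY5Y vector replicate 2 for MXD3 (limma adjusted p 0.0584 to 0.0755), and SK-N-BE(2) vector replicate 3, SH-SY5Y overexpression replicate 1 or 3 or SH-SY5Y vector replicate 2 for MYC (limma adjusted p 0.0523 to 0.0763). Since NDUFS6 was raised to very different levels, the lines were not compared at a matched dose.

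Some members differed between the empty vectors of a line, as many other genes did. Between the empty vectors of SH-SY5Y, knockdown minus overexpression vector, 4 of the 9 members were called, where 36.2% of all genes were called. They were MYC at 8.53 ± 0.38 against 13.5 ± 0.6 FPKM (-0.60, limma adjusted p = 2.16e-07), MYCN (-0.38), MAX (-0.19) and MYCL (0.23). The MYC difference between these vectors was larger than either construct's change against its own vector. Between the empty vectors of SK-N-BE(2), 3 of the 9 members were called, MYCL (0.65), MXD3 (0.28) and MXD4 (-0.14), where 34.5% of all genes were called. The MXD4 call was lost without any 1 of the 6 libraries (limma adjusted p 0.0533 to 0.0963), and that of MXD3 without knockdown vector replicate 3 or overexpression vector replicate 1 or 3 (limma adjusted p 0.0641 to 0.0683). In SH-SY5Y the MYCN call was lost without knockdown vector replicate 3 (-0.31, limma adjusted p = 0.0798) or overexpression vector replicate 1 (-0.35, limma adjusted p = 0.0558). The MYCL call there was lost without knockdown vector replicate 3 (0.20, limma adjusted p = 0.0799) or overexpression vector replicate 3 (0.21, limma adjusted p = 0.0688).

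The sum of the activators MYCN, MYC and MYCL was set against the sum of MXD1, MXD3, MXD4, MXI1 and MNT in each library, as a description of RNA only. In SK-N-BE(2) this ratio was 13.5 ± 2.3 in knockdown libraries and 32.8 ± 0.4 with the knockdown vector (SD, n = 3 each). It was 35.6 ± 2.0 in overexpression libraries and 27.7 ± 1.0 with the overexpression vector. In SH-SY5Y the ratio was 0.422 ± 0.058 in knockdown libraries and 0.547 ± 0.012 with the vector, and 1.046 ± 0.032 in overexpression libraries and 0.731 ± 0.025 with the vector. Neither line's knockdown libraries overlapped any other group of that line. The denominators were higher in SK-N-BE(2) knockdown, at 38.9 ± 0.3 FPKM in knockdown and 33.6 ± 0.4 FPKM in vector libraries. They were lower with both constructs in SH-SY5Y, at 20.6 ± 0.6 against 24.3 ± 0.8 FPKM for knockdown and 20.1 ± 0.1 against 25.4 ± 0.6 FPKM for overexpression. Activators per MAX stood at 40.4 ± 7.0 in SK-N-BE(2) knockdown and 92.6 ± 0.6 in vector libraries, so MYCN RNA far exceeded that of its partner throughout that line. In SH-SY5Y activators per MAX stood at 0.941 ± 0.128 in knockdown and 1.90 ± 0.18 in vector libraries.

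**Figure D4:**
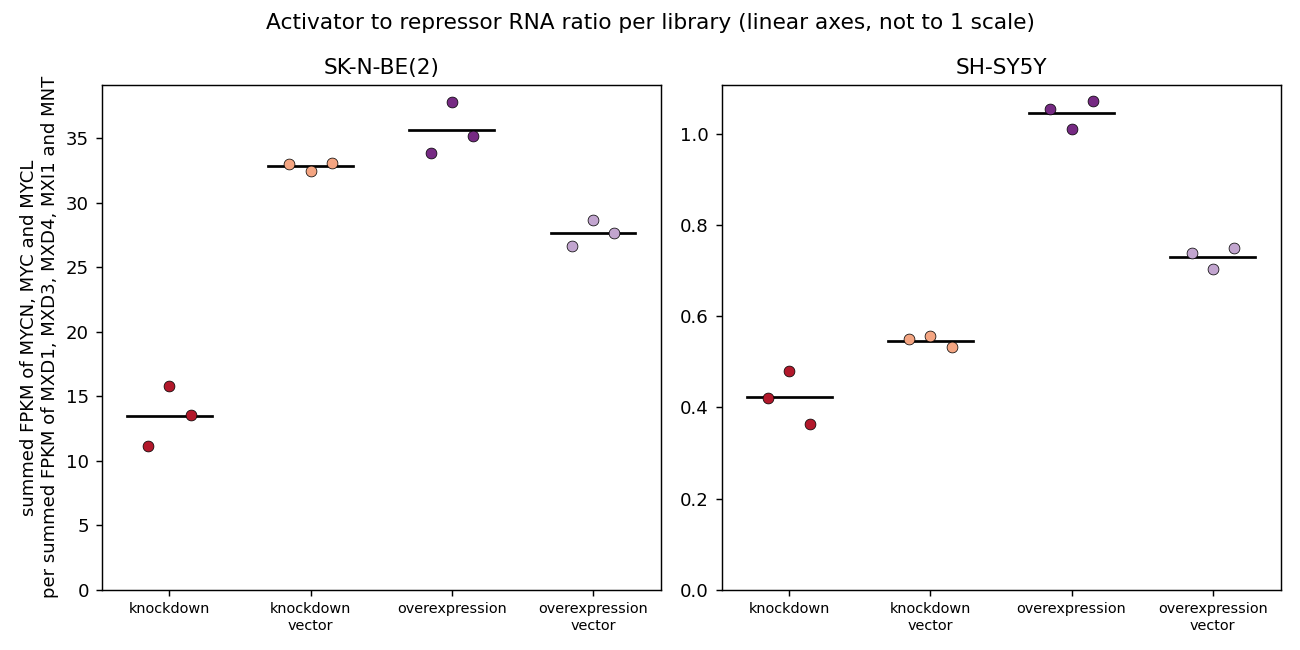
Summed FPKM of MYCN, MYC and MYCL divided by that of MXD1, MXD3, MXD4, MXI1 and MNT in each library, on linear axes that differ between the lines; points are libraries and bars means of 3. Knockdown libraries lie lowest in both lines, at 11.2 to 15.8 in SK-N-BE(2) and 0.364 to 0.481 in SH-SY5Y.

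Genes known to be activated by MYC family factors were counted next, for ribosome biogenesis (32 genes tested) and for growth and metabolism (38 genes tested). The median of all tested genes was -0.01 in each of the 4 comparisons. In SK-N-BE(2) knockdown, where MYCN fell, 17 growth and metabolism targets were lower and 6 higher (median -0.09), and 12 ribosome biogenesis targets were lower and 7 higher (median -0.07), where 28.3% of all genes were lower and 27.4% higher. Under TPM scaling these counts were 12 lower and 13 higher, and 8 lower and 11 higher, with medians of 0.01 and 0.03, so the direction of both lists flipped with the scaling. CAD, the first enzyme of pyrimidine synthesis and a long-known MYC target, was at 12.4 ± 1.2 against 23.1 ± 0.6 FPKM (-0.85, limma adjusted p = 1.28e-09; -0.42 against the other vector). FBL, a nucleolar methyltransferase, was at 62.1 ± 8.4 against 91.9 ± 1.8 FPKM (-0.57), and close to the other vector at 65.1 ± 4.0 FPKM. ID2, an inhibitor of differentiation factors, went against the list, at 41.8 ± 5.5 against 12.6 ± 1.9 FPKM (1.66, limma adjusted p = 4.36e-11).

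In SH-SY5Y knockdown 19 growth and metabolism targets were lower and 7 higher (median -0.16), where 29.6% of all genes were lower and 26.3% higher. Against the other vector 26 were lower and 6 higher. Against both vectors 19 were lower and 3 higher, where 42.5% of all genes were called the same way. HK2, which feeds glucose into glycolysis, was at 8.40 ± 0.33 in knockdown cells against 30.6 ± 0.3 FPKM with the vector (-1.75, limma adjusted p = 1.50e-15; -0.90 against the other vector), and LDHA, lactate dehydrogenase, changed by -1.04. ID2 rose here as well, to 95.6 ± 3.8 FPKM in knockdown cells against 29.1 ± 1.5 FPKM with the vector (1.68). Ribosome biogenesis targets turned with the vector in this line: 15 were higher and 4 lower against the own vector (median 0.10), and 3 were higher and 18 lower against the other (median -0.17). Under TPM scaling 9 were higher and 8 lower against the own vector (median 0.01).

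SH-SY5Y overexpression, in which MYC rose, had 23 of the 32 ribosome biogenesis targets higher and 0 lower (median 0.30), where 15.4% of all genes were higher and 17.2% lower. The same 23 were higher against the knockdown vector too, where 27.0% of all genes were called the same way against both. Between the SH-SY5Y empty vectors themselves, knockdown minus overexpression vector, 1 of these targets was higher and 23 were lower (median -0.28). Of all genes 18.4% were higher and 17.8% lower between those vectors. UBTF, the factor that loads RNA polymerase I, was at 34.3 ± 1.0 against 13.3 ± 0.3 FPKM (1.31, limma adjusted p = 6.59e-13), but it also rose in knockdown cells, at 19.3 ± 0.2 against 9.22 ± 0.35 FPKM, with 0.51 against the other vector. Growth and metabolism targets were 13 higher and 5 lower (median 0.12), with TFRC, the transferrin receptor, at 0.61 and HK2 at -0.35, and at 1.02 and -1.19 against the other vector. In SK-N-BE(2) overexpression the growth and metabolism list had 12 higher and 7 lower (median 0.10, and 0.00 against the other vector), where 12.9% of all genes were higher and 16.8% lower. The ribosome biogenesis list there had 7 higher and 3 lower (median 0.08). Whether MYCN or MYC drives any of these genes was not tested.

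Genes that MYC factors are known to repress were counted in the same way, 15 of them tested. In SK-N-BE(2) knockdown 10 were higher and 4 lower (median 0.57, and 1.31 under TPM scaling), where 27.4% of all genes were higher and 28.3% lower. Against the other vector 10 were higher and 2 lower (median 0.46). Against both vectors 9 were higher and 2 lower, where 35.4% of all genes were called the same way. CDKN1A, the cell cycle inhibitor p21, was at 13.5 ± 2.7 against 1.03 ± 0.41 FPKM (2.84, limma adjusted p = 4.57e-13). GADD45A, a stress-induced growth arrest gene, was at 44.7 ± 3.7 against 6.61 ± 0.83 FPKM (2.59, limma adjusted p = 2.00e-15; 1.75 against the other vector), and THBS1, an inhibitor of blood vessel growth, at 10.96 ± 0.58 against 0.378 ± 0.071 FPKM (3.12). TXNIP, a brake on glucose uptake, was lower at 7.61 ± 0.35 against 39.7 ± 1.4 FPKM (-2.24). In SH-SY5Y knockdown 8 were higher and 4 lower (median 0.33), where 26.3% of all genes were higher and 29.6% lower. Against the other vector 10 were higher and 3 lower (median 0.75). Against both vectors 8 were higher and 3 lower, where 42.5% of all genes were called the same way. Against the own vector SPARC, a matrix protein, rose most (1.10), and CDKN1C (-1.53) and TXNIP (-1.24) fell most. Against the other vector these changes were 2.42 for SPARC, -0.43 for CDKN1C and -0.63 for TXNIP. SH-SY5Y overexpression had 5 higher and 9 lower (median -0.27), where 15.4% of all genes were higher and 17.2% lower. That list depended on the vector: against the other one 1 was higher and 14 lower (median -0.86), and 4 genes were called in opposite directions by the vectors. Against both vectors 9 were lower and 1 higher, where 27.0% of all genes were called the same way. The lower genes included CDKN1A at 7.69 ± 0.30 against 14.2 ± 1.7 FPKM (-0.80, limma adjusted p = 9.50e-05; -2.49 against the other vector). In SK-N-BE(2) overexpression 7 were higher and 2 lower (median 0.19), where 12.9% of all genes were higher and 16.8% lower. Against the other vector 10 were higher and 3 lower (median 0.54). Against both vectors 7 were higher and 1 lower, where 14.3% of all genes were called the same way. The higher genes were led by NDRG1, a differentiation marker, at 6.68 ± 0.60 against 1.71 ± 0.43 FPKM (1.51, limma adjusted p = 5.06e-10). These genes also answer p53, stress and oxygen signals, and their list was not tested as a set.

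**Figure D5:**
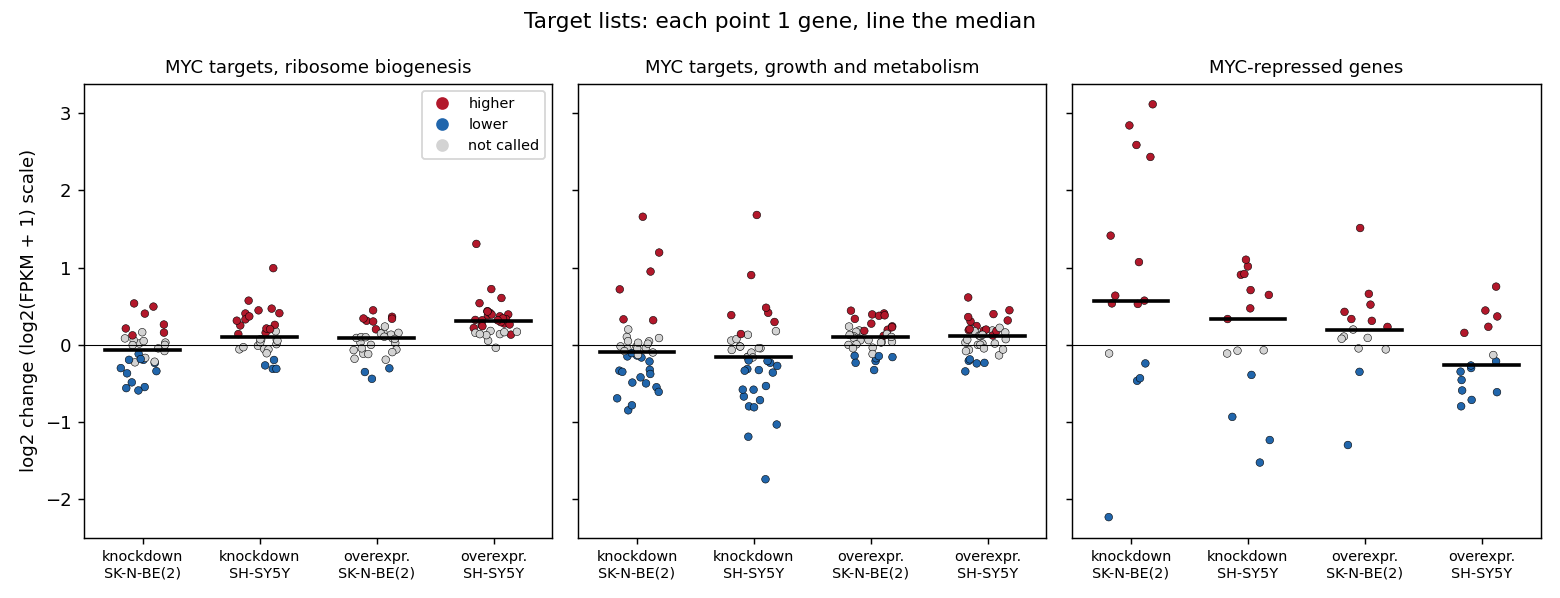
Log2 change on the log2(FPKM + 1) scale of each tested gene of the 3 target lists in the 4 comparisons with the own empty vector; colours mark genes called higher or lower by limma at an adjusted p under 0.05, and bars the list medians. Ribosome biogenesis targets in SH-SY5Y overexpression have 23 higher and 0 lower, and MYC-repressed genes in SK-N-BE(2) knockdown have 10 higher.

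Factors that set the stability of MYC proteins were read because RNA does not show it. Of 19 tested, 9 were lower and 3 higher in SK-N-BE(2) knockdown, and 8 lower and 4 higher in SH-SY5Y knockdown, where 55.7% and 56.0% of all genes were called. Against both vectors 6 were lower and 2 higher in SK-N-BE(2) knockdown, and 7 lower and 1 higher in SH-SY5Y knockdown, with 1 more called in opposite directions. These counts are near the 35.4% and 42.5% of all genes called the same way against both vectors. AURKA, the kinase that shields MYCN from degradation, was at 9.95 ± 0.55 FPKM in SK-N-BE(2) knockdown cells against 19.6 ± 1.2 FPKM with the vector (-0.91, limma adjusted p = 4.53e-11). In SH-SY5Y knockdown cells AURKA was at 6.94 ± 0.04 FPKM against 14.1 ± 0.4 FPKM with the vector (-0.92, limma adjusted p = 2.56e-11). PLK1, a mitotic kinase that also opposes MYCN turnover, had changes of -0.98 in SK-N-BE(2) and -1.18 in SH-SY5Y. Both fell against the other vector as well, by 0.37 for AURKA and by 0.32 for PLK1 in SK-N-BE(2). Both are also mitotic genes whose RNA follows the share of dividing cells. In overexpression cells AURKA was higher against the own vectors (0.22 in SK-N-BE(2) and 0.42 in SH-SY5Y), but in SK-N-BE(2) it was lower against the other vector (-0.32, limma adjusted p = 0.000167). The list had 2 higher and 7 lower in SK-N-BE(2) overexpression, and 6 higher and 2 lower in SH-SY5Y overexpression, where 29.7% and 32.6% of all genes were called. Against both vectors these were 0 higher, 5 lower and 2 in opposite directions in SK-N-BE(2), and 5 higher and 2 lower in SH-SY5Y. Of all genes 14.3% and 27.0% were called the same way against both vectors.

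Among 16 activator cofactors, 4 were higher and 8 lower in SK-N-BE(2) knockdown, 3 and 4 in SH-SY5Y knockdown, 3 and 6 in SK-N-BE(2) overexpression and 6 and 1 in SH-SY5Y overexpression. The share of all genes called in these comparisons was 55.7%, 56.0%, 29.7% and 32.6%. Against both vectors 2 were higher and 5 lower, 2 and 4, 1 and 3, and 5 and 1 in the same order, and 1 was called in opposite directions in each SK-N-BE(2) comparison. The share of all genes called the same way against both vectors was 35.4%, 42.5%, 14.3% and 27.0%. RUVBL2, an ATPase of the TIP60 complex, changed by -0.62 in SK-N-BE(2) knockdown, but was not called against the other vector (-0.09, limma adjusted p = 0.437). In SH-SY5Y knockdown it changed by -0.47, and by -0.57 against the other vector. Of the 9 MXD corepressor genes, 3 were lower and 2 higher in each knockdown, with SIN3A, the scaffold that MXD proteins bind, at -0.42 in SK-N-BE(2) and -0.37 in SH-SY5Y, and at -0.25 and -0.50 against the other vectors. These 5 of 9 are near the share of all genes called. Against both vectors 1 was lower and 0 higher in SK-N-BE(2) knockdown, and 3 lower and 1 higher in SH-SY5Y knockdown. Of all genes 35.4% and 42.5% were called the same way against both vectors. Overexpression gave 1 higher and 1 lower corepressor in each line, of which 0 held against both vectors in SK-N-BE(2) and 1, higher, in SH-SY5Y. The calls of 14.3% and 27.0% of all genes held in the same way. The wider network of MAX and MLX had 3 tested genes, 0 higher and 2 lower in SK-N-BE(2) knockdown, 2 higher and 0 lower in SH-SY5Y knockdown, 0 higher and 2 lower in SK-N-BE(2) overexpression and none called in SH-SY5Y overexpression. Against both vectors these were 2 lower, 1 higher, 1 lower with 1 in opposite directions, and 0. The shares of all genes are those given for the cofactors, in the same order. MGA, a large MAX partner, was at 6.26 ± 0.54 against 10.6 ± 0.6 FPKM in SK-N-BE(2) knockdown (-0.67, limma adjusted p = 6.10e-05), and -0.43 against the other vector (limma adjusted p = 0.00507).

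The genes whose level followed MYCN most closely over the 12 SK-N-BE(2) libraries, among 6959 genes, were BTBD2 (Pearson r = 0.995), ZIC2 (0.992), PIMREG (0.989), CLUH (0.989) and TUBB (0.987). Over the 12 SH-SY5Y libraries and 7309 genes, those most like MYC were POLA1 (0.992), SARM1 (0.990), TOPBP1 (0.989), PHF14 (0.987) and CARHSP1 (0.986). These correlations of log2(FPKM + 1) rest on 4 groups of 3 libraries, so group differences carry them, and they are given as a description.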

How the data were processed

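The authors deposited 1 table of FPKM values per gene for 24 libraries in 8 groups of 3. Per the labels, RNA was extracted with TRIzol, and strand-specific TruSeq libraries were read on a NovaSeq sequencer. Per the submitters' processing notes, FastQC 0.11.2, STAR and StringTie 1.3.1c were run on hg38. The sources used here give no annotation, strand setting or read numbers, so the depth is unknown, and the spread between libraries is the only measure of precision. FPKM summed to 249708 to 276091 per library, and 12607 to 14018 genes reached 1 FPKM.

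Rows reaching 1 FPKM in 3 or more libraries (15903 of 60564) were fitted as log2(FPKM + 1) in R 4.3.3 with limma 3.58.1, all 8 groups in 1 model (16 residual degrees of freedom), with a variance trend and robust moderation. Calls rest on two-sided p-values adjusted over all tested genes by the Benjamini-Hochberg method, with a threshold of 0.05. The fit was tested on simulated data. The contrasts were each construct against its own empty vector, the differences between lines, the empty vectors of a line, and the lines. Fold values are ratios of mean FPKM. Alternatives were the pseudocount, the filter, scaling to TPM or by median of ratios, the groups fitted, the other empty vector, the moderation, a replicate block and leaving out each library. 2 alternatives, the lines compared with the knockdown or the overexpression vectors alone, and the 400 kb window were chosen after seeing the data.

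The members and lists were chosen with earlier results of these data known. Named list genes came from the 3 largest called rises and falls per list and comparison whose higher group averaged 5 FPKM or more, and some of these are given. The list genes MLXIPL, MYCNUT, CCND2 and CDKN2B were not tested. Gene positions and exons came from GENCODE release 29 on GRCh38, in which MXD1 shares exon bases on its strand with SNRNP27, MXD3 with RAB24 and MXD4 with MIR4800, so their values are uncertain. MYCN, MYCL, MAX, MXD3, MXI1 and MNT overlap a gene on the opposite strand. RAB24 rose by 0.47 in SK-N-BE(2) knockdown, where MXD3 fell.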

Additional observations from a re-analysis of the deposited data

Results flagged for a closer look

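The knockdown changes of 8 members differed between the lines by limma's interaction test (SK-N-BE(2) minus SH-SY5Y, log2 scale, 3 libraries per group). This was 8 of 9, where 55.8% of all genes were called. The differences were 1.305 for MYC, 1.35 for MXD1, 0.98 for MYCL, 0.74 for MXI1 and 0.60 for MNT, and -0.68 for MYCN, -0.57 for MXD4 and -0.24 for MAX. Those of MYCN and MAX were not called with the other vectors (-0.04 for MYCN and -0.08 for MAX) or under TPM scaling. That of MXD1 was not called with a pseudocount of 0.1 FPKM (1.26, limma adjusted p = 0.0996).

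The overexpression changes of 6 members differed in the same test: 0.65 for MYCL, 0.42 for MXI1, 0.40 for MXD4, 0.37 for MXD3, 0.29 for MNT and -0.25 for MYC. This was 6 of 9, where 36.8% of all genes were called. The differences of MYCL and MXD3 were not called with the other vectors (0.24 for MYCL and 0.07 for MXD3). Those of MXD3 and MYC lost their calls when certain single libraries were left out (limma adjusted p up to 0.0755 and 0.0763). The median of all genes was 0.01 for the knockdown difference and -0.01 for the overexpression difference.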

How the results depend on the processing

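Over the member results outside the comparison of lines, 543 values under the other settings kept direction and side of the threshold, 26 lost and 14 gained a call, and 15 changed sign. With 1 library left out, 486 kept both, 32 lost and 7 gained a call, and 15 changed sign. The cause of these changes was not tested unless stated.

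A filter of a mean of at least 5 FPKM, which tests fewer genes, gave 4844 called genes and 4 called members in SK-N-BE(2) knockdown, 4593 genes in SH-SY5Y knockdown, 2886 genes and 3 members in SH-SY5Y overexpression, 4574 and 5 in the knockdown difference, 3375 and 3 in the overexpression difference, 3230 and 1 between the SK-N-BE(2) vectors, 3207 genes between the SH-SY5Y vectors, and 5940 and 5 between the lines. In SK-N-BE(2) overexpression, 4716 genes and 3 members were called. Median of ratios scaling called 5 members there, and fitting only its 2 groups called 966 genes and 1 member. SH-SY5Y overexpression had 5186 called genes, and 8810 against the other vector.

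TPM scaling moved the median of all genes by over 0.1 for the knockdown difference alone among the 9 comparisons, to 0.20, against 0.01 with FPKM. The higher share of calls was 49.2% with FPKM and 60.8% with TPM in SK-N-BE(2) knockdown, 47.0% and 35.4% in SH-SY5Y knockdown, 43.4% and 32.7% in SK-N-BE(2) overexpression, 52.8% and 69.8% for the knockdown difference, 49.8% and 38.3% for the overexpression difference, and 45.1% and 25.1% for the SK-N-BE(2) vectors.

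Signs changed under TPM for MAX in SH-SY5Y overexpression (0.030) and MXI1 between the SK-N-BE(2) vectors (-0.022). Under median of ratios they changed for MNT in SH-SY5Y knockdown (0.0028), MAX in SH-SY5Y overexpression (0.015), and MXD1 (0.0037) and MNT (0.0078) between the SK-N-BE(2) vectors. With the other vector they changed for MXD1 in SH-SY5Y knockdown (-0.21), for MYC (0.0067), MYCL (-0.42), MXD3 (-0.048) and MXD4 (0.083) in SK-N-BE(2) overexpression, for MAX (0.19) and MXD1 (0.38) in SH-SY5Y overexpression, for MXD3 in the knockdown difference (0.071) and for MYCN in the overexpression difference (-0.46).

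With each library left out in turn, called genes and members were 8056 to 8467 and 7 to 8 in SK-N-BE(2) knockdown, 8273 to 8378 and 6 to 7 in SH-SY5Y knockdown, 2754 to 6197 and 1 to 3 in SK-N-BE(2) overexpression, 4230 to 4560 and 5 in SH-SY5Y overexpression, 8390 to 8701 and 8 to 9 for the knockdown difference, 5087 to 6762 and 4 to 6 for the overexpression difference, 4605 to 4838 and 1 to 2 between the SK-N-BE(2) vectors, 4804 to 5098 and 3 to 5 between the SH-SY5Y vectors, and 12035 to 12119 and 9 between the lines. The low gene counts in SK-N-BE(2) overexpression were 2754 without overexpression replicate 2 and 3082 without vector replicate 3, and 1 member was called without overexpression replicate 3 or vector replicate 1 or 3. Between the SK-N-BE(2) vectors 1 member was called without knockdown vector replicate 3 or overexpression vector replicate 1 or 3. Ranges that crossed 0 were -0.054 to 0.063 for MYCL in SK-N-BE(2) knockdown, -0.21 to 0.40 for MXD1 in SH-SY5Y knockdown, -0.033 to 0.032 for MAX and -0.074 to 0.037 for MXD1 in SH-SY5Y overexpression, -0.056 to 0.020 for MXD1 and -0.027 to 0.013 for MNT between the SK-N-BE(2) vectors, and -0.067 to 0.029 for MXD3, -0.048 to 0.0085 for MXI1 and -0.032 to 0.00053 for MNT between the SH-SY5Y vectors.

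Same-numbered libraries of compared groups share a number in their titles, and whether they share a preparation was not tested. Their residual correlations were -0.08 to 0.37. Both ends were in SK-N-BE(2) overexpression, at 0.14, 0.37 and -0.08 for replicates 1, 2 and 3. The replicate block gave 9137 called genes in SK-N-BE(2) knockdown, 9174 in SH-SY5Y knockdown, 5180 in SK-N-BE(2) overexpression and 5426 in SH-SY5Y overexpression. With the block MXD3 was called (0.24, limma adjusted p = 0.0341) and MNT was not (0.12, limma adjusted p = 0.0680) in SK-N-BE(2) overexpression, and no other member call changed. No paired analysis was possible for the lines because the block is set within a line. Unknown depth limits MYC below 1 FPKM in SK-N-BE(2).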
